A study of Mus musculus with 4 samples.

Results

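The 10 genes described here encode the stathmins (Stmn1, Stmn2, Stmn3 and Stmn4) and neuronal proteins of microtubules and growth cones (Map2, Map1b, Mapt, Dcx, Tubb3 and Gap43). They were chosen by name, through the gene symbol that the array platform's annotation gives each probe set. That rule uses no measured value, but the choice was made with earlier results of these data known. All 10 were found, each with 1 probe set, among 22206 probe sets and 19505 named genes. The cells were Neuro-2a, a line derived from a mouse neuroblastoma of albino strain A that is often used as a model of neurons. One group received the pyrethroid insecticide deltamethrin at 30 µM for 24 h and the other its vehicle, 0.1% DMSO, for the same time, with 2 arrays in each group. The labels give no DMSO content for the deltamethrin samples. Total RNA was read on Clariom S Mouse arrays, which give 1 level per probe set and therefore do not separate the splice forms of Map2, Mapt or Dcx. Both groups are the same line, and the labels name no genetic change in either. The labels leave unsaid whether the 2 samples of a group were separate cultures, so each p-value is set against a spread between samples that may be technical only.

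Microtubules are hollow polymers of alpha and beta tubulin that grow and shrink at their ends. Stathmins bind free tubulin dimers and promote shrinkage, and phosphorylation switches this activity off. Stmn1 is cytosolic and abundant in dividing cells, whereas Stmn2, Stmn3 and Stmn4 are largely neuronal and reach Golgi and vesicle membranes through a palmitoylated stretch at the amino terminus. MAP2, MAP1B, tau and doublecortin bind the polymer itself and stabilise or bundle it, MAP2 mainly in dendrites and tau mainly in axons. TUBB3 is the beta tubulin that marks neurons, and GAP43 is a palmitoylated protein of the inner membrane of growth cones. The arrays measured transcripts only, so neither phosphorylation nor tubulin polymer was read.

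After deltamethrin the group did not move as a whole: 4 of the 10 genes had higher and 6 had lower estimates. Stmn4 was 2.38 times higher, a log2 fold change (deltamethrin minus vehicle) of 1.25 ± 0.19 (SE, n = 2 per group). Map2 was the lowest of the others at -0.56 ± 0.20. For 0 of the 10 genes did the adjusted p reach the threshold of 0.05 in limma, which fits all probe sets and adjusts over all of them by the Benjamini-Hochberg method. In that fit 0.432% of all probe sets were called. At an unadjusted p below 0.05 there were 2 members, Stmn4 and Map2, where 13.7% of all probe sets passed. The members' median log2 fold change was -0.03, beside -0.02 over all probe sets. Counts of calls depended on the variance model. When limma let the variance follow the expression level, 1 member passed, Stmn4, with 3.63% of all probe sets called. When the dimmest 40% of probe sets were left out, 1 member passed again, Stmn4, with 2.34% called. At a threshold of 0.1 in the first fit Stmn4 also passed, with 1.05% of all probe sets.

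**Figure D1:**
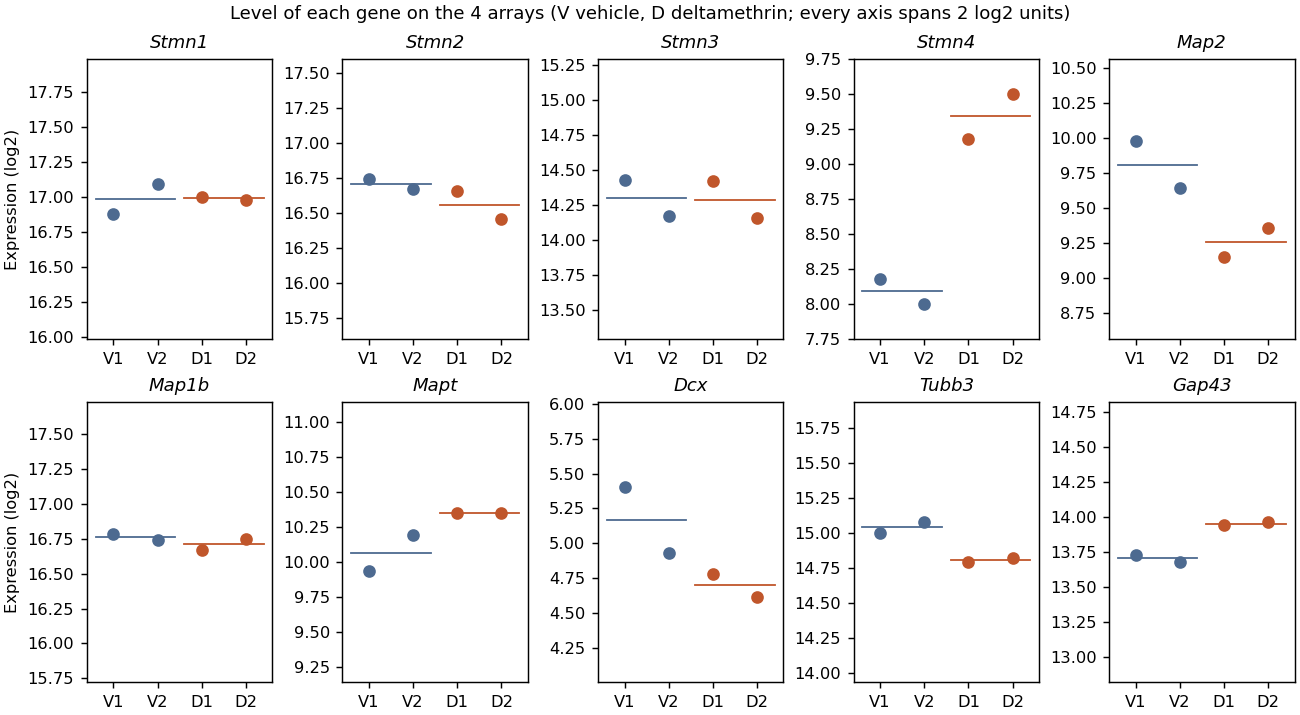
Levels of the 10 genes on the 4 arrays (log2 scale; V1 and V2 are the vehicle arrays, D1 and D2 the deltamethrin arrays), with a horizontal line at each group's mean. Every vertical axis spans 2 log2 units, so heights compare between panels: Stmn4 has the widest separation, with both deltamethrin arrays at least 1.00 above both vehicle arrays.

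The levels are log2 values after the authors' normalization, and the medians of the 4 arrays lay between 5.61 and 5.63. Of the members, 9 had a mean above the median of all values, 5.62, and Dcx lay below it. Stmn1, Stmn2 and Map1b were read at 16.46 to 17.09 in single arrays, high in a range whose array maxima were 18.65 to 18.75. Whether differences are compressed at such high readings was not tested. Levels of different probe sets depend on their probes, so they give no order of abundance among these genes. The 2 arrays of a group differed by at most 0.47 for any member, which was Dcx in the vehicle pair. As a check of the cells, all 10 measured sympathoadrenal neuroblast markers had means above the median of all values. Their mean level was 12.17 and 12.16 with vehicle and 11.89 and 11.71 with deltamethrin, with 8 of the 10 estimates lower and a median of -0.48. In limma 0 of them were called and 8 had an unadjusted p below 0.05, where 13.7% of all probe sets passed. With the mean-variance trend Prph rose, and the homeobox gene Isl1 (-1.14 ± 0.17, adjusted p = 0.0740 in the first fit, limma) and the granin gene Chgb (-0.54 ± 0.16) fell. The estimate for Dbh, which encodes the enzyme that makes noradrenaline, was -1.25 ± 0.47, with a wide spread in both groups. Th, another marker of this list, went the other way at 0.90 ± 0.27 (adjusted p = 0.242 in limma). Chgb, Dbh and Th are named here after their values were seen. The part of these markers in the members' levels was not tested. A mean above that median was found for 0 of 8 fibroblast markers and 0 of 7 astrocyte markers, and for 1 of 6 oligodendrocyte and Schwann cell and 1 of 7 microglia and macrophage markers.

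Of the tubulin-sequestering stathmins, Stmn4 (also called RB3, Entrez gene 56471) had the largest difference of all 10 genes. It was read at 8.18 and 8.0 with vehicle and at 9.18 and 9.50 with deltamethrin. Both treated arrays lay above both vehicle arrays, and the gap of 1.00 between the groups exceeded the differences within them. The group means were 8.09 ± 0.13 and 9.34 ± 0.23 (SD, n = 2), and the 95% interval of the log2 fold change ran from 0.79 to 1.71, that is from 1.73 to 3.27 times. The unadjusted p was 0.000456, 136 probe sets had a smaller one, and the adjusted p in limma was 0.0740. This adjusted p was 0.00878 with a mean-variance trend and 0.0282 without dim probe sets. The called probe sets of the first fit all differed by at least 1.22 on the log2 scale, so Stmn4, at 1.25 and not called, lay at the low end of their sizes. Intervals here are for single genes and are not widened for the number of genes tested.

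The other stathmins had estimates near 0. Stmn1, the ubiquitous stathmin also known as oncoprotein 18 (Entrez gene 16765), was read at 16.88 and 17.09 with vehicle and at 17.00 and 16.98 with deltamethrin. The treated arrays fell between the vehicle arrays. Its log2 fold change was 0.01 ± 0.17 (SE), with a 95% interval of -0.41 to 0.42 and an adjusted p of 0.992 in limma. Stmn3, also called SCLIP (Entrez gene 20262), stood at 14.43 and 14.17 with vehicle and 14.42 and 14.16 with deltamethrin. The groups overlapped almost fully, and the difference of -0.01 ± 0.19 had an interval of -0.47 to 0.45 (adjusted p = 0.988 in limma). For Stmn1 and Stmn3 the sign of the estimate turned with quantile scaling, and for Stmn3 with cyclic loess scaling too. Both intervals leave room for a moderate change of either sign, but they do not reach the estimate for Stmn4.

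Stmn2, also called SCG10 (Entrez gene 20257), is the stathmin of growing axons. It was read at 16.74 and 16.67 with vehicle and at 16.66 and 16.46 with deltamethrin. The groups did not overlap, but the gap between them was 0.01, the step in which the values were deposited. The log2 fold change was -0.14 ± 0.17 (SE, 95% interval -0.56 to 0.27, adjusted p = 0.772 in limma). It was -0.24 without deltamethrin array 1 and -0.04 without deltamethrin array 2.

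Whether the stathmins moved by unequal amounts was measured within each array, as the Stmn4 level minus the mean of the levels of Stmn1, Stmn2 and Stmn3. The size of this quantity depends on the probes, and only its difference between arrays is read. Stmn1 and Stmn2 were read much higher than Stmn4, and whether this compresses their differences was not tested. It was -7.84 and -7.98 on the vehicle arrays and -6.85 and -6.37 on the deltamethrin arrays. Both treated arrays were higher, by 1.30 on average, and a shift of a whole array would cancel in it. An exact permutation test (two-sided) gave p = 0.333, which is the smallest p that 2 arrays against 2 can give. The test could therefore not decide the question, and Stmn4 was already the member of largest difference in these values. Leaving out 1 array at a time gave differences of 1.06 to 1.54.

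**Figure D2:**
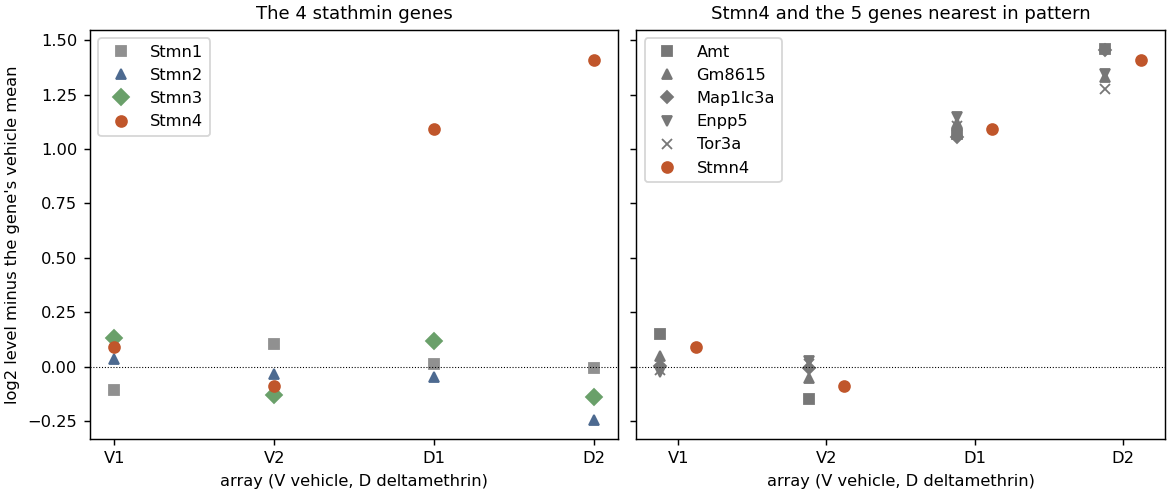
Log2 levels minus each gene's vehicle mean, on the vehicle (V) and deltamethrin (D) arrays. Left, the 4 stathmin genes: Stmn4 stands more than 1 log2 unit above its vehicle mean on both treated arrays, while Stmn1, Stmn2 and Stmn3 stay close to theirs on every array. Right, Stmn4 beside the 5 genes nearest to it in pattern.

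The genes whose pattern over the 4 arrays lay nearest to that of Stmn4 were taken from all named probe sets. Likeness was the Euclidean distance between log2 values centred on each probe set's mean. They were the glycine cleavage enzyme gene Amt (distance 0.10), the predicted gene Gm8615 (0.10), the autophagy gene Map1lc3a, which encodes LC3A (0.13), Enpp5 (0.18) and Tor3a (0.19). Amt was dim, at 4.33 and 4.03 with vehicle, below the median of all values, 5.62, and at 5.25 and 5.64 with deltamethrin. Whether it was above background cannot be said. Map1lc3a was read at 7.32 and 7.31 with vehicle and at 8.37 and 8.77 with deltamethrin, a difference of 1.26 ± 0.20 (SE, adjusted p = 0.0771 in limma). LC3 was first described as a light chain bound to the microtubule proteins MAP1A and MAP1B. The adjusted p of the other 4 ran from 0.0535 to 0.0881 in limma. The distance rests on 4 arrays only, and it weighs the size of the difference as much as its shape.

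Among the structural proteins of the microtubule, Map2 (Entrez gene 17756) had the largest estimate. MAP2 crosslinks and spaces microtubules in dendrites. Its transcript was read at 9.98 and 9.64 with vehicle and at 9.15 and 9.36 with deltamethrin. Both treated arrays lay below both vehicle arrays, and the gap of 0.28 was smaller than the difference of the vehicle pair. The group means were 9.81 ± 0.24 and 9.26 ± 0.15 (SD, n = 2). The log2 fold change of -0.56 ± 0.20 (SE, 95% interval -1.03 to -0.08), or 31.9% lower, had an unadjusted p of 0.0277 and an adjusted p of 0.302 in limma. It did not pass with the mean-variance trend either (adjusted p = 0.165).

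The tau gene Mapt (Entrez gene 17762), whose protein binds axonal microtubules through repeats related to those of MAP2, had an estimate on the other side of 0. It was read at 9.93 and 10.19 with vehicle and at 10.35 on both deltamethrin arrays. The treated arrays were higher than both vehicle arrays by 0.16 or more. The log2 fold change was 0.29 ± 0.18 (SE, 95% interval -0.14 to 0.72, adjusted p = 0.532 in limma). It was 0.16 without vehicle array 1. Whether Map2 and Mapt differed from each other in their change was not tested.

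Map1b (Entrez gene 17755) encodes a protein of growing axons that is made as a precursor and cut into a heavy and a light chain. It was read at 16.78 and 16.74 with vehicle and at 16.67 and 16.75 with deltamethrin. The groups overlapped, and the 4 values lay within a narrower range than those of any other member. The difference was -0.05 ± 0.16 (SE, 95% interval -0.44 to 0.34, adjusted p = 0.930 in limma), and its sign turned with cyclic loess scaling. It was -0.03 without vehicle array 1, -0.01 without deltamethrin array 1 and -0.09 without deltamethrin array 2.

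Doublecortin, the product of Dcx (Entrez gene 13193), binds between the protofilaments of microtubules in migrating and immature neurons. Its probe set was the only one of the 10 with a mean below the median of all values, though bright enough to pass the filter on dim probe sets. It was read at 5.40 and 4.93 with vehicle and at 4.78 and 4.62 with deltamethrin. All 4 values lay below the median of the arrays, and the deposited table gives no detection call, so whether Dcx was above background cannot be said. The treated arrays were below the vehicle arrays by at least 0.15, less than the difference of 0.47 within the vehicle pair. The log2 fold change was -0.46 ± 0.21 (SE, 95% interval -0.98 to 0.05, adjusted p = 0.404 in limma). It ran from -0.70 to -0.23 when vehicle array 2 or vehicle array 1 was left out.

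The neuronal beta tubulin gene Tubb3 (Entrez gene 22152) was read at 15.00 and 15.08 with vehicle and at 14.79 and 14.82 with deltamethrin. The growth cone gene Gap43 (Entrez gene 14432) was read at 13.73 and 13.68 with vehicle and at 13.94 and 13.96 with deltamethrin. For both genes the gap between the groups (0.18 and 0.21) was wider than any difference within a group, with Tubb3 lower and Gap43 higher. The differences were small: -0.24 ± 0.16 for Tubb3 (SE, adjusted p = 0.586 in limma) and 0.24 ± 0.16 for Gap43 (adjusted p = 0.568). Their 95% intervals were -0.63 to 0.16 and -0.14 to 0.63. The spread that limma assigns to a gene is drawn toward the typical spread of all probe sets, so such close replicates carry limited weight. With the mean-variance trend, which assigns bright probe sets less spread, the adjusted p values were 0.281 and 0.305.

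**Figure D3:**
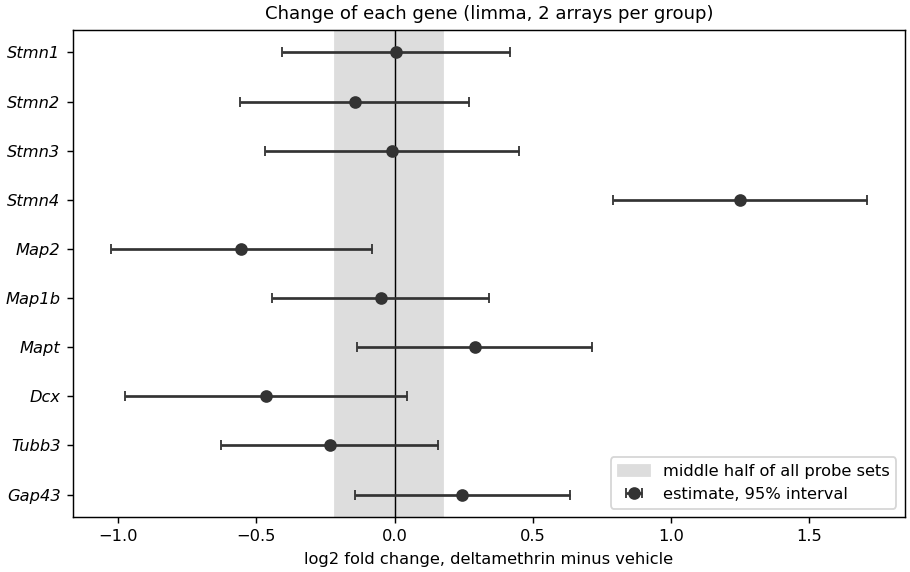
Log2 fold change (deltamethrin minus vehicle) of the 10 genes with 95% intervals from limma, n = 2 arrays per group; the grey band spans the quartiles of all probe sets, from -0.21 to 0.17. The intervals of Stmn4 and Map2 do not include 0, Stmn4 above it and Map2 below it.

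Counted over the 10 genes, the groups did not overlap for 7, of which 3 were higher (Stmn4, Mapt and Gap43) and 4 lower (Stmn2, Map2, Dcx and Tubb3). Over all probe sets the groups did not overlap for 43.9%. The count for the members was 6 to 8 under the 3 other scalings. For 8 of the 10 genes the 95% interval lay wholly within a 2-fold change in either direction, the exceptions being Stmn4 and Map2.

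The partners of these proteins were counted in 13 lists with 189 distinct measured genes, of which 2 were called (1.06%). Over all probe sets 0.432% were called and 13.7% had an unadjusted p below 0.05, and the counts of each list stand beside these shares. In the tubulins themselves, which form the polymer, 0 of 14 alpha and beta tubulin genes passed in limma and 1 had an unadjusted p below 0.05, with a median of -0.10. The gene of smallest p was Tuba4a, at 6.53 and 6.59 with vehicle and 7.33 and 7.26 with deltamethrin, which is 0.74 ± 0.16 higher in log2 (SE, adjusted p = 0.149 in limma). Next was Tuba3a, whose mean lay below the median of all values, at -0.43 ± 0.20, or -0.26 without deltamethrin array 1. Several of these genes are near-identical in sequence, such as Tuba1a, Tuba1b and Tuba1c, so their probe sets may share signal. Of the gamma, delta and epsilon tubulins, which act at centrosomes and centrioles, 0 of 4 passed. Tubg2 was at 0.48 ± 0.18 and Tube1 at -0.28 ± 0.19. Tube1 was at -0.18 without vehicle array 1, -0.42 without deltamethrin array 1 and -0.14 without deltamethrin array 2. The chaperone cofactors that fold tubulin into dimers had 0 of 7 called and a median of 0.06, with Tbce at 0.39 ± 0.16 and Arl2 at 0.35 ± 0.17.

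Among other microtubule-associated proteins 1 of 21 genes was called, and it rose. The riser was Tppp3, a member of the family of tubulin polymerisation promoting proteins. It was read at 11.03 and 10.97 with vehicle and at 12.25 and 12.19 with deltamethrin, and both treated arrays lay far above both vehicle arrays. It rose by 1.22 ± 0.16 (SE, adjusted p = 0.0486 in limma), a size like that of Stmn4 with closer replicates. The call was marginal: the adjusted p was 0.0517 with robust moderation and with quantile scaling. It was 0.362 without moderation, and it ran from 0.364 to 0.678 when vehicle array 1 or 2 or deltamethrin array 1 or 2 was left out. The list's median was close to 0 at -0.01, and 6 of its genes had an unadjusted p below 0.05. With the mean-variance trend 2 rose: Tppp3 and, named here after its values were seen, Ndel1 (0.81 ± 0.16, adjusted p = 0.131 in limma).

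Proteins that handle microtubule ends, cut the polymer or modify it had no called gene. In the plus-end and minus-end list 0 of 14 passed (median -0.09), with Slain2, which promotes growth at plus ends, at -0.60 ± 0.18 and Nav1, a neuron navigator gene, at 0.56 ± 0.19. In the severing list 0 of 6 passed (median -0.21), with Fignl1 at -0.66 ± 0.17 and the spastin gene Spast at -0.48 ± 0.18. In the tubulin-modifying list 0 of 16 passed (median -0.15). Its genes of smallest p were Ttll11, a tubulin polyglutamylase, and the tubulin deacetylase gene Sirt2. Ttll11 was read at 6.77 and 7.02 with vehicle and at 8.68 and 8.08 with deltamethrin, a difference of 1.48 ± 0.24 (SE, adjusted p = 0.0865 in limma). Sirt2 was at 0.98 ± 0.19 (adjusted p = 0.121). Slain2, Fignl1, Ttll11 and Sirt2 passed with the mean-variance trend.

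The list of kinases and phosphatases that act on stathmins, tau and MAPs had a median of -0.22, with 19 of 26 genes lower, and 0 passed in limma while 6 had an unadjusted p below 0.05. The protein kinase C gene Prkca was at -0.73 ± 0.17 (SE, adjusted p = 0.163 in limma) and the mitotic kinase gene Aurkb, whose product phosphorylates stathmin, at -0.63 ± 0.16 (adjusted p = 0.191). With the mean-variance trend 5 genes of this list fell (Prkca, Cdk1, Cdk2, Aurka and Aurkb), where 3.63% of all probe sets were called. Of these, Cdk1, Aurka and Aurkb are also in the mitosis list. The remaining gene with an unadjusted p below 0.05, Cdk5, went the other way at 0.635 ± 0.183 (adjusted p = 0.225 in limma). Its adjusted p was 0.0614 with the trend, and it is named here after its values were seen. The estimates of the mitosis list lay below 0 for all 21 genes measured (median -0.57). In that list 0 passed in limma, 14 had an unadjusted p below 0.05 and 12 fell with the trend. The shares of all probe sets were 13.7% at that unadjusted p and 3.63% called with the trend. Mki67, the proliferation antigen, was at -0.95 ± 0.16 (adjusted p = 0.0939 in limma) and the spindle checkpoint kinase gene Ttk at -0.79 ± 0.17. The mean level of the mitosis list was 13.07 and 13.17 on the vehicle arrays and 12.50 and 12.63 on the deltamethrin arrays. Stmn1, known as a gene of dividing cells, stood at 17.00 and 16.98 on those deltamethrin arrays, between its vehicle values. The part of proliferation in the members' levels was not tested.

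The growth cone list, which holds partners and relatives of GAP43 in membrane and actin remodelling, had lower estimates for 16 of 18 genes and a median of -0.29, while the estimate of Gap43 itself was higher. In limma 0 passed and 4 had an unadjusted p below 0.05. Marcks, a membrane-bound protein kinase C substrate like GAP43, was read at 15.98 and 15.94 with vehicle and at 15.22 and 15.37 with deltamethrin, a difference of -0.66 ± 0.17 (SE, adjusted p = 0.187 in limma). Ablim1, an actin-binding LIM protein gene, was at -0.84 ± 0.20 (adjusted p = 0.164). Both passed with the mean-variance trend. Whether Gap43 differed in its change from this list was not tested.

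Intermediate filaments are the third polymer of the neuronal cytoskeleton. Of 7 neuronal and class III filament genes 2 had higher and 5 lower estimates. In limma 0 passed, 3 had an unadjusted p below 0.05 and the median was -0.13. Peripherin, the filament of peripheral neurons encoded by Prph, was read at 15.06 and 15.14 with vehicle and at 15.66 and 15.79 with deltamethrin (0.62 ± 0.17, adjusted p = 0.201 in limma). Ina, which encodes alpha-internexin, was read at 15.06 and 14.94 and then at 14.55 and 14.35 (-0.55 ± 0.17, adjusted p = 0.262 in limma). Prph rose and Ina fell with the mean-variance trend.

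Among genes known from nerve injury and axon regeneration, a programme to which Gap43 and Stmn2 also belong, 1 of 20 was called, and it rose. In the list 7 had an unadjusted p below 0.05 and the median was -0.06. With the mean-variance trend 3 rose: Atf3 and, named here after their values were seen, Klf6 (0.88 ± 0.17, adjusted p = 0.121 in limma) and Gadd45a (0.97 ± 0.19, adjusted p = 0.124). The gene called in the first fit was that of the stress-inducible transcription factor Atf3, at 10.51 and 10.67 with vehicle and 12.77 and 12.73 with deltamethrin. It rose by 2.16 ± 0.17 (SE, adjusted p = 0.0134 in limma). The adjusted p was 0.362 without moderation, and it ran from 0.346 to 0.678 when vehicle array 1 or 2 or deltamethrin array 1 or 2 was left out. Of the regulators of neuronal transcripts 0 of 18 passed and 1 had an unadjusted p below 0.05, with 14 lower estimates and a median of -0.19. Elavl4 (HuD), an RNA-binding protein known to stabilise the mRNAs of Gap43 and Mapt, was at -0.46 ± 0.18 (adjusted p = 0.351 in limma). The estimates of Gap43 and Mapt lay above 0, with intervals that include 0. The part of Elavl4 in their levels was not tested. Mbnl2, a splicing factor, was at 0.40 ± 0.17.

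**Figure D4:**
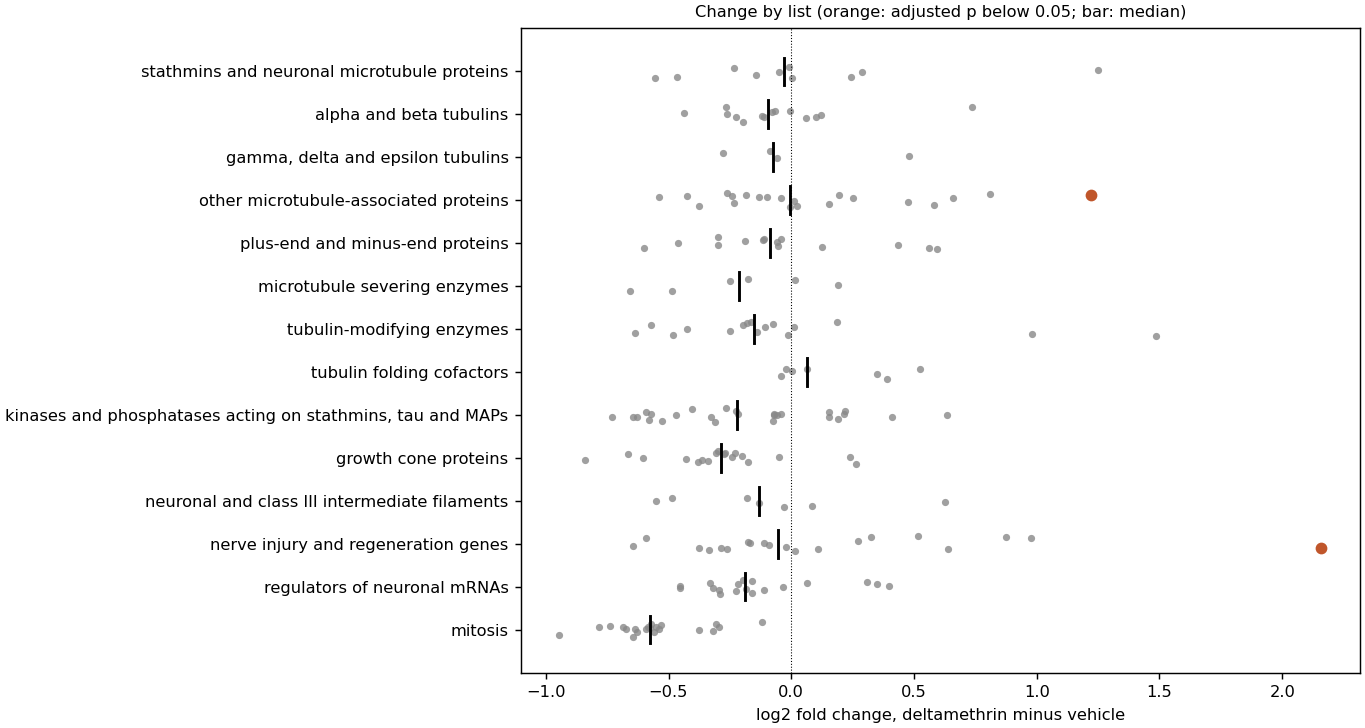
Log2 fold change (deltamethrin minus vehicle) of every measured gene in the stathmin and microtubule group and in the 13 lists of related genes; black bars are medians and orange points the 2 genes with an adjusted p below 0.05 in limma, Tppp3 (1.22) and Atf3 (2.16). The mitosis list lies wholly below 0, while the stathmin and microtubule group lies on both sides of it with Stmn4 apart at 1.25.

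The lists were written with earlier results of these data known, so the shares below describe them and test nothing. Over the 13 lists 26.46% of genes had an unadjusted p below 0.05, where all probe sets gave 13.7%. The mitosis list held 14 of these 50 genes. Among probe sets that pass the dim filter, a subset added after the data were seen, the shares were 28.31% of 166 listed genes and 17.3% of all. With the mean-variance trend 27 of the 189 genes were called (14.29%), 8 higher and 19 lower, against 3.63% of all probe sets. In the brighter subset these shares were 16.27% and 5.96%. Outside the mitosis list 15 of 168 genes were called in that fit.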

How the data were processed

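The authors' deposited values are on a log2 scale, 1 per probe set and array with 2 decimals, and the submitters' processing notes name RMA and Transcriptome Analysis Console. Which RMA variant and versions were used is not given in the sources used here, and variants differ in how far they compress fold changes. That the values are log2 was inferred from their range. Genes were named through the platform's annotation, with symbols checked by Entrez ID against RefSeq (0 updated). Of the probe sets, 19572 carried 1 symbol, 0 carried several and 2634 are unnamed here. Where a listed gene had several probe sets, the brightest was used. All 22206 probe sets were fitted with limma 3.58.1 (R 4.3.3; lmFit, eBayes, no trend, no block), two-sided, with 2 residual and 4.43 prior degrees of freedom. The median SE was 0.19. An adjusted p below 0.05 was called, and "rose" and "fell" are used for calls of the fit named. Precision is limited by the number of arrays. The fit was tested on simulated data whose spread followed its own variance model and did not depend on level. Scan dates and batches were not analysed here, and any batch that follows the groups cannot be told apart from treatment.

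The members and lists were chosen with earlier results of these data known. Named from each list were its called genes, at most 3, or otherwise the 2 of smallest p. Genes nearest in pattern were the 5 of smallest distance to the member of largest change. Of 207 list entries, 192 were matched and the others were not analysed here. Alternatives were a mean-variance trend, robust or no moderation, 3 scalings, a filter on dim probe sets, array weights, a looser threshold, the replicate number as a block, and each array left out.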

Additional observations from a re-analysis of the deposited data

How the results depend on the processing

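The count of called probe sets, 96 in all, was 806 with a mean-variance trend, 312 without dim probe sets and 233 at an adjusted p below 0.1. It was 0 without moderation and 0 to 0 when 1 of the 4 arrays was left out, the lone array of a group being assumed to vary like the other group. At an unadjusted p below 0.05 the fit without moderation held 2293. The count of called members was 1 in place of 0 with the trend, without dim probe sets and at 0.1, each time Stmn4. The estimate for Stmn4 ran from 1.09 to 1.41 over the 13 alternatives, with an adjusted p from 0.00878 to 0.678.

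Signs turned for 3 members with estimates near 0. With quantile normalization Stmn1 was at -0.0106 and Stmn3 at 0.0194, and with cyclic loess normalization Stmn3 was at 0.0281 and Map1b at 0.0136. With 1 array left out Stmn1 ran from -0.10 to 0.11 and Stmn3 from -0.14 to 0.12. The other 7 members kept their sign in the alternatives run. With the replicate number as a block 0 probe sets were called (3221 at an unadjusted p below 0.05), and the adjusted p was 0.211 for Tppp3 and 0.160 for Atf3. Deviations of same-numbered arrays correlated at 0.127, which 2 pairs fix to a single value, so the numbers are not shown to pair the arrays. The members' median stayed between -0.10 and 0.02. With 2 arrays per group and a median SE of 0.19, changes of the size seen in most members are below what this comparison can call.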
